A study of Mus musculus with 12 samples.

Results

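The cytosolic ribosomal protein genes code for the proteins that, with ribosomal RNA, build the large (Rpl) and small (Rps) subunits of the ribosome. They were taken by symbol: every gene of the expression table whose name starts with Rpl or Rps followed by a digit, with Rplp0, Rplp1, Rplp2 and Rpsa, and without the S6 kinases (Rps6k) and the symbols that mark pseudogenes (-ps). This gave 87 of the 23949 genes read. Of them 77 are core subunit genes, 46 of the large and 31 of the small subunit, 9 are paralogues of a core gene, and Rps19bp1 carries the prefix without being a subunit.

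Ribosomal proteins are needed in near equal numbers, 1 of most kinds per ribosome, and their mRNAs belong to the most abundant of any cell. Most of these mRNAs start with a C followed by an unbroken run of pyrimidines, the terminal oligopyrimidine (TOP) motif, through which the mTOR pathway sets their translation. In the cochlea they are found in every cell type, the sensory hair cells, the spiral ganglion neurons, the stria vascularis and blood cells of the bony wall alike.

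Polyadenylated RNA of whole cochleae was sequenced in 12 libraries, 3 each from Dusp1-/- mice (KO) and wild type mice (WT) at 5 and at 8 months of age, all of the strain 129S2/SvPas:C57BL/6. Dusp1 codes for a phosphatase that turns off stress-activated kinases, and the study asked how its loss alters the ageing cochlea. The KO libraries were E7, F18 and F19 at 5 months and F5, F6 and F27 at 8 months, and the WT libraries were E1, E3 and E4 at 5 months and F1, F10 and F12 at 8 months, by the animal codes on the labels. The deletion is constitutive, so every cell type of the cochlea carries it, and KO and WT refer below to the genotype on the label.

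The values are FPKM, fragments scaled to the length of the transcript and to the mapped reads of the library, so that levels can be compared between genes, but the number of reads behind them is unknown. In KO libraries Dusp1 mRNA itself was at 61.9, 81.5 and 75.3 FPKM at 5 months and 55.6, 73.8 and 57.1 FPKM at 8 months, against 60.8, 47.6 and 29.5 FPKM in WT libraries at 5 months and 43.0, 38.3 and 38.6 FPKM at 8 months. Dusp1 therefore does not check the labels: its level was above WT in every KO library of the same age, a value for the whole gene does not show which part of it was read, and each direction given below rests on the label. Libraries E7 and F5 stood apart in 25 neutrophil genes (such as those of granule proteins), whose FPKM added up to 23870 in E7 and 17600 in F5, against 213 to 7787 in the other libraries. Of 21 genes that mark cochlear cells none was at 0 in any group, and their sum ran from 4571 to 6683 FPKM. Xist, which marks female tissue in mice, was at 34.9 to 52.4 FPKM in E4, F1, F6 and F27 and at most 0.0935 FPKM in the other libraries, so that the sexes were not spread evenly over the groups. In whole tissue, fewer cells of a type and less RNA per cell cannot be told apart.

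Windows of 30 bases were read from RefSeq's promoter table (build GRCm38.p6), from 10 bases before the annotated start to 20 bases from it on, in order to show the TOP motif that the family shares. Capitals mark the longest run of C and T, 5 bases or more, counted from a C within 10 bases of the start. Rps27, Rpl38 and Rps21 are among the 6 most abundant members, Rps26, Rpl35 and Rpl18 had the smallest p in the genotype comparison averaged over ages, and Rpl41 and Rpl36al are an abundant member and a paralogue in which no such run was found.
Rps27 (chr3:90213629-90213658, minus strand): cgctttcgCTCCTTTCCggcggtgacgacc
Rpl38 (chr11:114668570-114668599, plus strand): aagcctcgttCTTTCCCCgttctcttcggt
Rps21 (chr2:180257369-180257398, plus strand): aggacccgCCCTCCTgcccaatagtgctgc
Rps26 (chr10:128626487-128626516, minus strand): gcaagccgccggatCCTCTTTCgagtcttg
Rpl35 (chr2:39005112-39005141, minus strand): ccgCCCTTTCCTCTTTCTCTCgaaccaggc
Rpl18 (chr7:45718061-45718090, plus strand): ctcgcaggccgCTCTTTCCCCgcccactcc
Rpl41 (chr10:128549149-128549178, minus strand): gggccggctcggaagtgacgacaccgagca
Rpl36al (chr12:69184048-69184077, minus strand): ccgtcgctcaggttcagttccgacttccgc

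A window of 250 bases before to 50 bases after the start was matched for 66 of the 87 members. Of the 57 core members among them, 34 (59.6%) held such a run at an annotated start, against 34.4% of all 27025 genes of the promoter table. The motif CCGGAAG, bound by ETS factors such as GABP, was found on either strand in 24 of the 57 (42.1%), against 9.93% of all genes, and AAGATGGCG, a YY1 motif, in 3 (5.26%), against 1.64%. Annotated starts can lie some bases from those used in the cochlea, so that a missing run says only that these letters are not in this window.

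Of the 87 members, 84 had a mean above 1 FPKM over the 12 libraries, 76 above 100 FPKM and 11 above 1000 FPKM, and 38 of the 100 most abundant genes of the cochlea were members. Core members ran over a wide range, with a lowest mean of 22.2 FPKM for Rpl30 (large subunit), a median of 626 FPKM and a highest mean of 2835 FPKM for Rps27 (small subunit). After Rps27 the most abundant were Rplp1, an acidic protein of the stalk that recruits elongation factors (2718 FPKM), Rps29 (2009 FPKM), Rpl41 (1778 FPKM), Rpl38 (1435 FPKM) and Rps21 (1341 FPKM). Core members were thus far apart in FPKM, although most of their proteins are needed in equal number. The low end is uncertain. Of the stretches of Rpl30 as long as a read (50 bases), 62.5% also occurred outside the gene. Rps15a, the next lowest core member at 35.8 FPKM, has a longest annotated transcript of 5134 bases.

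Many members have near-identical copies elsewhere, on which their values depend. On the mouse build mm9, which the deposited files use, the median core transcript was 703 bases long with 51.8% GC, and core members lay on 19 chromosomes, 14 of them on chromosome 7. Of the 50-base stretches of a core transcript, the length of a read, a median of 69.6% also occurred without mismatch outside the gene, and in 54 of the 77 the share was at least 50%. For 10 members at least 50% of the stretches lay in more than 5 places, the number of hits that the alignment allowed. While Rps3 shared 3.50% and Rpl8 7.87%, most of the sequence was shared in 4 members, Rpl28 (100%), Rpl11 (99.4%), Rpl12 (99.3%) and Rps28 (99.3%). The FPKM of members that share much sequence, these 4 among them, are uncertain in that the counting could split their reads with copies. This also holds for members named below for a small p. The share in more than 5 places was 83.7% in Rpl7a, 76.7% in Rps2, 69.6% in Rpl29 and 56.1% in Rps12. It was under 50% in the others so named, while Rpl18 had 85.1% of its stretches in at least 1 other place.

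Members together took 10.2, 9.30 and 9.98% of the summed FPKM in KO libraries at 5 months, against 8.76, 9.33 and 10.1% in WT libraries. At 8 months their share was 11.1, 11.01 and 10.9% in KO libraries, against 10.3, 10.4 and 10.6% in WT libraries. At 8 months every KO library thus lay above every WT library, while at 5 months the groups overlapped. Both 8-month groups lay above the library E4, the highest of their 5-month WT, and above E7, the highest of the 5-month KO.

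**Figure D1:**
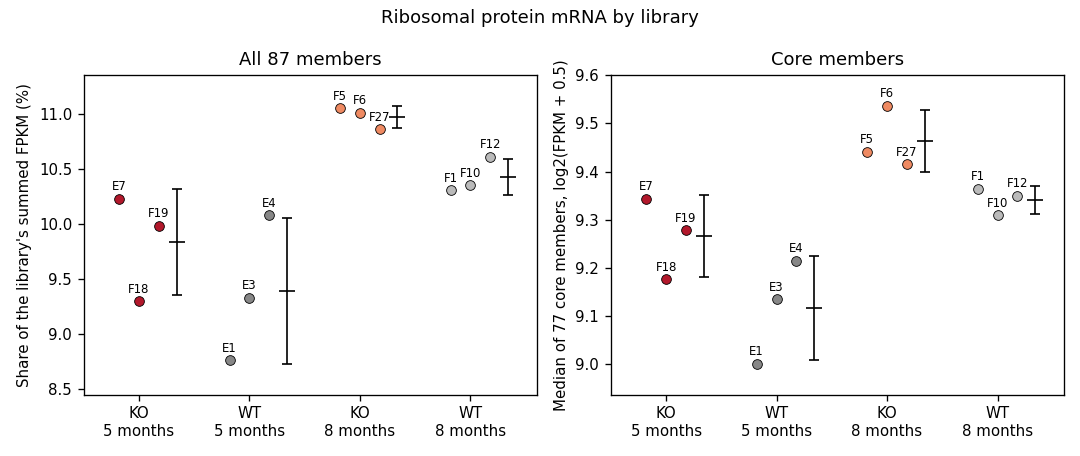
Ribosomal protein mRNA by library, KO left of WT at each age. The left axis gives the share of a library's summed FPKM in all 87 members (%), the right axis the median log2(FPKM + 0.5) of the 77 core members; points are libraries with their animal codes, and bars give mean ± SD (n = 3). KO libraries at 8 months sit between 10.9 and 11.1%, above the 10.3 to 10.6% of WT, and E1 is lowest in both panels.

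The median log2 level of the core members was 9.27 ± 0.08 in KO and 9.12 ± 0.11 in WT at 5 months, and 9.46 ± 0.06 in KO and 9.34 ± 0.03 in WT at 8 months (SD, n = 3 each). The summed FPKM of the large subunit over that of the small subunit was 1.17 ± 0.01 in KO and 1.21 ± 0.02 in WT at 5 months, and 1.19 ± 0.02 in KO and 1.18 ± 0.02 in WT at 8 months. At 5 months this ratio was lower in every KO library (1.16 to 1.17) than in every WT library (1.19 to 1.23; exact permutation tests of 3 against 3 cannot go below p = 0.1), and at 8 months the groups overlapped.

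Whether loss of Dusp1 went with another level of ribosomal protein mRNA was read from a limma fit of the 16277 genes that averaged 0.5 FPKM or more, on log2(FPKM + 0.5), with p adjusted over all of them. All members but Rpl10l and Rpl39l, 85 in all, entered it. At 5 months no member passed an adjusted p of 0.05, as against 0.0676% of all genes, and the smallest adjusted p was 0.16 for Rpl18. The differences nonetheless leaned one way: 82 of 85 members had a log2 difference above 0 and the median was 0.16 (KO over WT), beside a median of -0.03 over all genes tested. At an unadjusted p under 0.05, 25 members had higher and 0 lower values in KO. Of all 16277 genes tested, 8.23% were higher and 1614 genes lower by this rule. In 29 members every KO library was above every WT library, and in 0 members below. Of all genes tested, 11.3% were above and 2239 of 16277 below in this way.

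At 5 months the core small subunit had a median of 0.19 with 31 of 31 members above 0, and the core large subunit a median of 0.13 with 43 of 46 above 0. The smallest p were those of Rpl18, Rps19, Rpl29, Rpl12, Rplp2, Rplp0, Rps2, Rps26, Rps9 and Rps12. Among these Rplp0 and Rplp2 are stalk proteins, Rps2 lies at the entry of the mRNA channel, Rps26 near its exit, and Rps19 is needed to mature the small subunit and is mutated in some families with Diamond-Blackfan anaemia.

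Rpl18, a large subunit protein, was at 441, 430.0 and 422 FPKM in KO libraries and at 335, 349 and 374 FPKM in WT libraries at 5 months. Its groups did not overlap, and the difference was 0.29 ± 0.07 (log2, SE; limma adjusted p = 0.16). Rps19 was at 384, 378 and 344 FPKM in KO libraries and at 261, 285 and 316 FPKM in WT libraries at 5 months, a difference of 0.36 ± 0.11 (limma adjusted p = 0.19) and again without overlap. With 3 libraries against 3, the exact permutation test of a single gene cannot go below p = 0.1, and it gave that value for both genes. At 8 months the Rps19 values were 433, 403 and 327 FPKM in KO libraries and 372, 354 and 384 FPKM in WT libraries, which overlapped (difference 0.06 ± 0.11, limma adjusted p = 0.99).

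The 5-month count changed with the libraries used. For this and the other alternatives, here and below, no share over all genes was set beside the count. A change in such a count need not be particular to the members. Without E1, the WT library with the lowest member levels, the median was 0.09 and 3 members had an unadjusted p under 0.05. Without E7 the count was 3, without E3 it was 12, and without E4, the highest WT library, it was 43 with a median of 0.22. The scaling mattered too: with each library set to the same FPKM sum, 69 of 85 members stood above 0 and 7 were higher at an unadjusted p under 0.05, and after quantile scaling 42 of 85 stood above 0, with 3 higher and 2 lower. With the 2 groups fitted alone the count was 10. The letter of the animal code runs in part with genotype at 5 months, since E1, E3 and E4 are WT and F18 and F19 are KO. With this letter as a covariate the median was 0.22 and the count 20. Within a group the letter differs only in KO at 5 months, so this adjustment rests on E7 against F18 and F19. Markers of several cell types differed between the genotypes at this age. The 25 neutrophil genes added up to 4521 to 23870 FPKM in KO and 213 to 869 FPKM in WT, with none at 0 in either group. The 20 B-lineage genes added up to 88.7 to 263.6 FPKM in KO and 49.9 to 62.0 FPKM in WT. The 20 genes of cycling cells reached 131 to 358 FPKM in KO and 78.65 to 87.8 FPKM in WT. The 14 red cell genes overlapped, at 2766 to 5189 FPKM in KO and 956.5 to 2791 FPKM in WT. The 17 neuronal genes were lower, at 1856 to 2175 FPKM in KO and 2417 to 2581 FPKM in WT. Their part in the members' difference was not tested. With E7 and F5 left out, a choice made after seeing the data, the median was 0.13 with 77 of 85 members above 0, and 4 had an unadjusted p under 0.05. With the neutrophil level as a covariate it was 0.13, and 1 member had an unadjusted p under 0.05.

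At 8 months the median difference was 0.12 with 77 of 85 members above 0, beside a median of -0.00 over all genes tested. No member passed the adjusted threshold, as against 0.0123% of all genes, and the smallest adjusted p was 0.56 for Rps26. At an unadjusted p under 0.05, 18 members were higher in KO and 1 lower, against 2.21% of all genes higher and 483 of 16277 lower. In 28 members every KO library lay above every WT library, against 4.10% of all genes. In 1 member, Rps27rt, every KO library lay below, against 1005 of 16277 genes. The neutrophil genes added up to 1135 to 17600 FPKM in KO and 878 to 4961 FPKM in WT. F6, with the highest core level of all 12 libraries, had a neutrophil sum of 1135 FPKM, and F5, with the next highest, one of 17600 FPKM. The part of these cells was not tested. Without F6 the median was 0.09 and 4 members were higher at an unadjusted p under 0.05. Without F10 or F1 these counts were 10 and 11. With the same FPKM sum in each library 6 members were higher, after quantile scaling 2, with the 2 groups fitted alone 8, and with every gene above 0 FPKM in the fit 10. KO at 8 months holds 2 of the libraries with high Xist and WT holds 1, and with Xist as a covariate the count was 10. With the neutrophil level as a covariate 18 members were higher and 1 lower, with a median of 0.11. Median ratio scaling gave 20 higher and 1 lower.

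The core large and small subunits had medians of 0.13 and 0.12 at 8 months. The smallest p were those of Rps26, Rpl35, Rpl41, Rps27rt, Rpl36a, Rpl29, Rpl19, Rpl28, Rpl7a and Rpl11. Rps26 and Rpl29 were among the 10 at both ages. Rpl11 is one of the large subunit proteins that bind Mdm2 and so tie ribosome assembly to p53, Rpl35 and Rpl19 lie around the exit of the peptide tunnel, and Rpl41 is a very short basic peptide.

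Rps26, on mm9 at chr10:128061585-128063562, was at 889, 941 and 938 FPKM in KO libraries and at 712, 648 and 748 FPKM in WT libraries at 8 months, a difference of 0.40 ± 0.09 (limma adjusted p = 0.56). At 5 months it was at 796, 690.4 and 694 FPKM in KO libraries and at 597, 584 and 664 FPKM in WT libraries (0.24 ± 0.09, limma adjusted p = 0.22). Within each age its KO and WT libraries did not overlap. Rpl35, on mm9 at chr2:38857101-38860651, was at 972, 1007 and 992 FPKM in KO libraries and at 799, 801 and 877 FPKM in WT libraries at 8 months (0.26 ± 0.07, limma adjusted p = 0.81), and at 783, 753 and 747 FPKM in KO libraries and 641, 688 and 721 FPKM in WT libraries at 5 months (0.16 ± 0.07, limma adjusted p = 0.28). The same order held for Rpl35, with no overlap within either age. Rps26 and Rpl35 shared 60.7 and 91.8% of their 50-base stretches with other places of the genome.

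Rplp1, second in abundance, differed from this lean. It was at 2521, 2335 and 2454 FPKM in KO libraries and at 2335, 2377 and 2754 FPKM in WT libraries at 5 months, and at 2846, 3147 and 2842 FPKM in KO libraries and at 2755, 3183 and 3064 FPKM in WT libraries at 8 months. The groups overlapped at both ages, with differences of -0.03 ± 0.11 and -0.03 ± 0.11 (log2, SE). For Rps27, first in abundance, the groups also overlapped, at 2772, 2551 and 2711 FPKM in KO libraries and 2265, 2604 and 2705 FPKM in WT libraries at 5 months, and at 2899, 3396 and 3370.2 FPKM in KO libraries and 2776, 2941 and 3033 FPKM in WT libraries at 8 months. Its differences were 0.09 ± 0.11 and 0.14 ± 0.11.

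**Figure D2:**
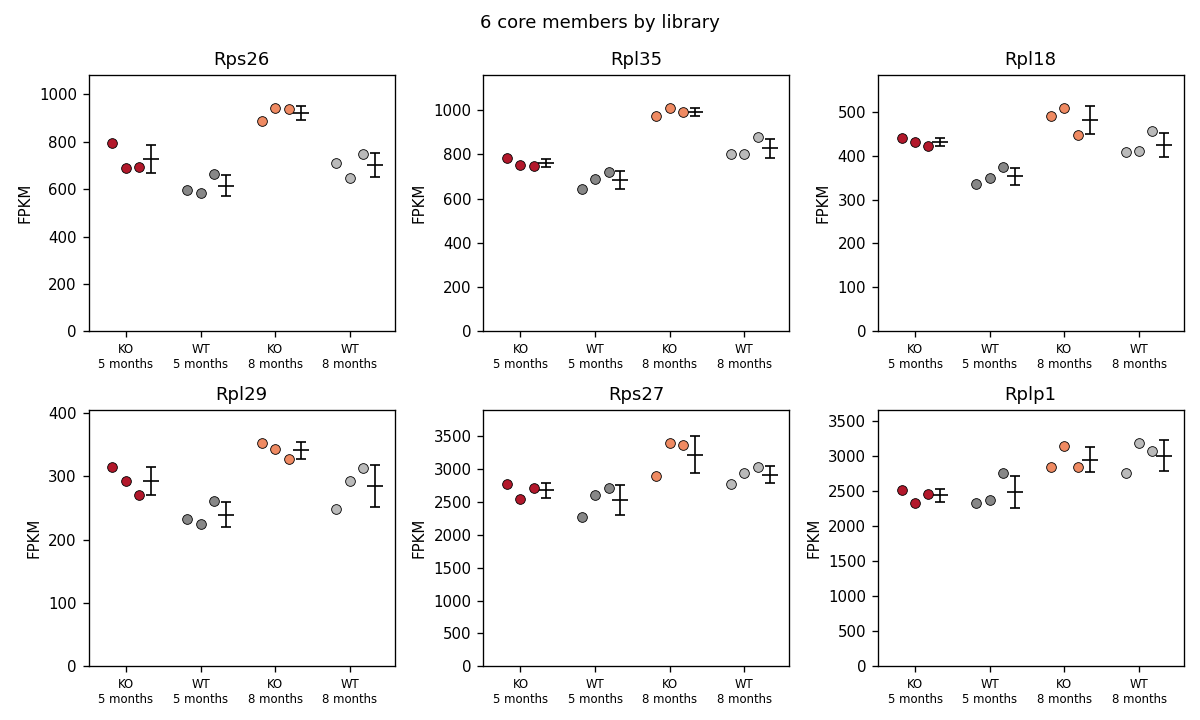
FPKM of 6 core members by library, KO left of WT at each age, with the FPKM axis from 0; points are libraries and bars mean ± SD (n = 3). In Rps26, Rpl35 and Rpl29 every KO library lies above every WT library of its age, in Rpl18 at 5 months only, and in Rps27 and Rplp1 the groups overlap at both ages.

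Averaged over the ages, the median difference was 0.14, 81 of 85 members were above 0, and no member passed the adjusted threshold, as against 0.0799% of all genes. The smallest adjusted p was 0.10 for Rps26 (0.32 ± 0.06), and Rpl18 (0.24 ± 0.05, limma adjusted p = 0.12), Rpl35 (0.21 ± 0.05, limma adjusted p = 0.13) and Rpl29 (0.28 ± 0.07, limma adjusted p = 0.14) followed. At an unadjusted p under 0.05, 46 members had higher and 0 lower values, against 7.75% of all genes higher and 9.66% lower. Without E1 or E7 the count was 25 and 26, and without both E7 and F5 it was 22 higher and 2 lower, while the neutrophil covariate gave 15 higher and 1 lower. With the same FPKM sum it was 14 higher, after quantile scaling 6 higher and 2 lower, and with Xist as a covariate 44 higher. Without E4 it was 55 higher. The test of the difference between ages called no member, as against 0.00614% of all genes, with a median over the members of -0.05. At an unadjusted p under 0.05 it gave 1, Rps27rt, which was lower, beside 270 of 16277 genes lower. A genotype difference particular to an age was thus not shown for any member.

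**Figure D3:**
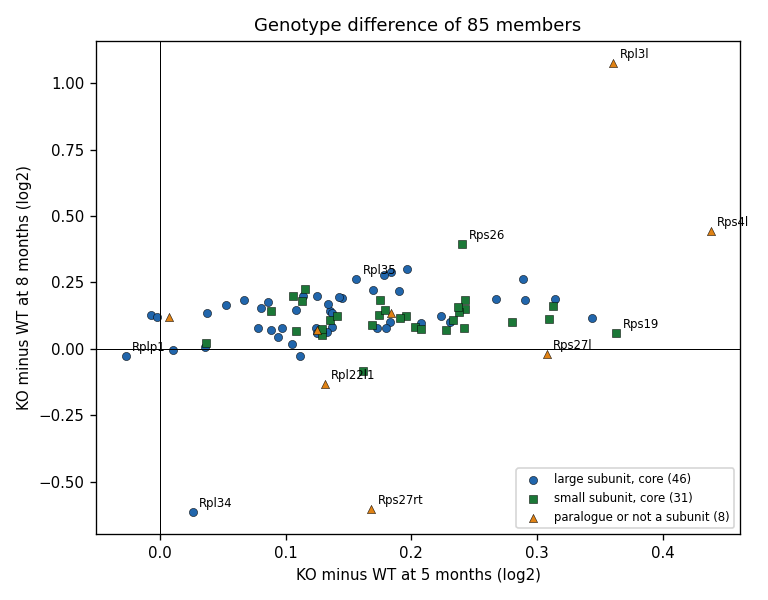
Log2 difference, KO minus WT, of the 85 tested members at 5 months (x axis) and at 8 months (y axis). Points are core members of the large (46) and small (31) subunit and 8 paralogues or other members; most lie above 0 on both axes, while Rpl34 and Rps27rt lie at -0.61 and -0.60 on the 8-month axis and the scattered Rpl3l at 1.08.

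Rpl34 had the lowest difference averaged over ages, -0.29 ± 0.27, and the widest spread of the core members. It was at 159.8, 114 and 128 FPKM in KO libraries and 103, 129 and 167 FPKM in WT libraries at 5 months, and at 179, 87.8 and 51.1 FPKM in KO libraries and 114, 172 and 149 FPKM in WT libraries at 8 months. Only F6 and F27 were below 100 FPKM. The annotation used by the authors places a 2nd gene, Rpl34-ps1, on the same strand of the same locus (mm9, Rpl34 at chr3:130429745-130433255 and Rpl34-ps1 at chr3:130429755-130433247), so that the reads of this locus were divided between both names.

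Rpl34-ps1 was at 594, 532 and 549 FPKM in KO libraries and 434, 537 and 454 FPKM in WT libraries at 5 months, and at 589, 672 and 625 FPKM in KO libraries and 639, 492 and 531 FPKM in WT libraries at 8 months. The share of the locus booked to Rpl34 ran from 7.55% in F27 and 11.6% in F6 to 26.8% in E4. The sum of both genes was 693 ± 55.7 FPKM in KO and 608 ± 65.8 FPKM in WT at 5 months, and 735 ± 51.1 FPKM in KO and 699 ± 47.3 FPKM in WT at 8 months (SD, n = 3 each). Added up, the locus thus showed neither the low level in F6 and F27 nor a lower mean in KO.

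**Figure D4:**
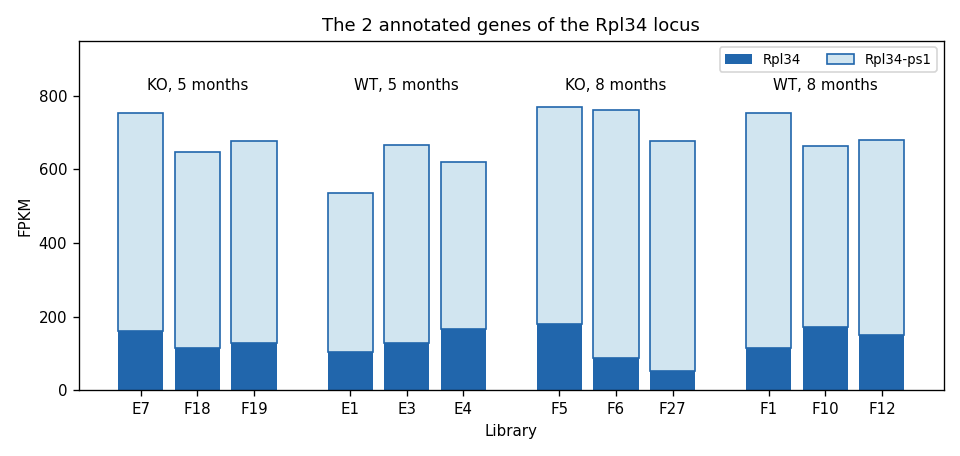
FPKM (y axis, from 0) of Rpl34 (dark) and Rpl34-ps1 (light), stacked, in each library (x axis), KO left of WT at each age. The dark part shrinks to 87.8 FPKM in F6 and 51.1 FPKM in F27, while the stacked height of these libraries, 760.2 and 676 FPKM, lies within that of the rest.

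Taken relative to the median core member of the same library, most members kept a steady proportion. The SD of this deviation over the 12 libraries had a median of 0.08 on the log2 scale, and 56 of 77 core members stayed under 0.1. Rps16 was the steadiest with an SD of 0.02, ahead of Rpl13a (0.02), Rpl6 (0.02) and Rpl8 (0.03). The 3 with an SD over 0.15 were Rpl34 (0.53), Rpl30 (0.29) and Rps15a (0.20), and the last 2 are also the lowest core members in FPKM. Rpl30, which in yeast binds its own pre-mRNA, was at 20.3, 20.7 and 13.6 FPKM in KO libraries and 15.99, 15.3 and 21.6 FPKM in WT libraries at 5 months, and at 28.9, 29.0 and 21.5 FPKM in KO libraries and 21.6, 25.7 and 32.0 FPKM in WT libraries at 8 months. Its groups overlapped between genotypes at both ages.

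In part of the libraries these deviations followed the length of the transcript, and not always in the same sense. Across the 77 core members, which share a library's depth and preparation, Pearson's r of the deviation with log2 length was 0.69 in E1, 0.58 in E3 and 0.47 in F1, where longer members stood relatively higher, and -0.57 in F10, -0.50 in F12 and -0.46 in F5, where shorter ones did. The other libraries lay between, from -0.36 in F6 to 0.28 in F19, with -0.095 in E4 and 0.04 in F27. With GC content r was 0.58 in F18, 0.48 in F10 and 0.46 in F5, and -0.57 in E3, -0.49 in F1 and -0.45 in E1. E1 and E3, the WT libraries with the lowest member levels at 5 months, were thus also those with the lowest relative levels of short members.

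Because of this, differences were set beside transcript length over all genes tested. Of genes outside the family with transcripts of 500 to under 1000 bases and at least 50 FPKM, 325 in number, the median difference was 0.09 at 5 months and 0.09 at 8 months (KO over WT), and it was -0.09 and -0.08 for the 163 such genes of 4000 bases or more. The 46 core members of 500 to under 1000 bases had medians of 0.18 and 0.11. Core members under 500 bases (14) had 0.17 and 0.14, against 0.14 and 0.03 in 111 other genes of at least 50 FPKM. Those of 1000 to under 2000 bases (14) had 0.12 and 0.14, against 0.01 and 0.05 in 600 other genes of that level. The 2 core members of 2000 to under 4000 bases had 0.06 and 0.11, and the 1 of 4000 bases or more had 0.04 and 0.02. From 500 bases on, the core medians thus fell with length at 5 months, while at 8 months the 3 shorter classes had no steady order. The other genes of 500 bases or more stood lower the longer they were at both ages. The part of length in the members' difference was not tested.

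**Figure D5:**
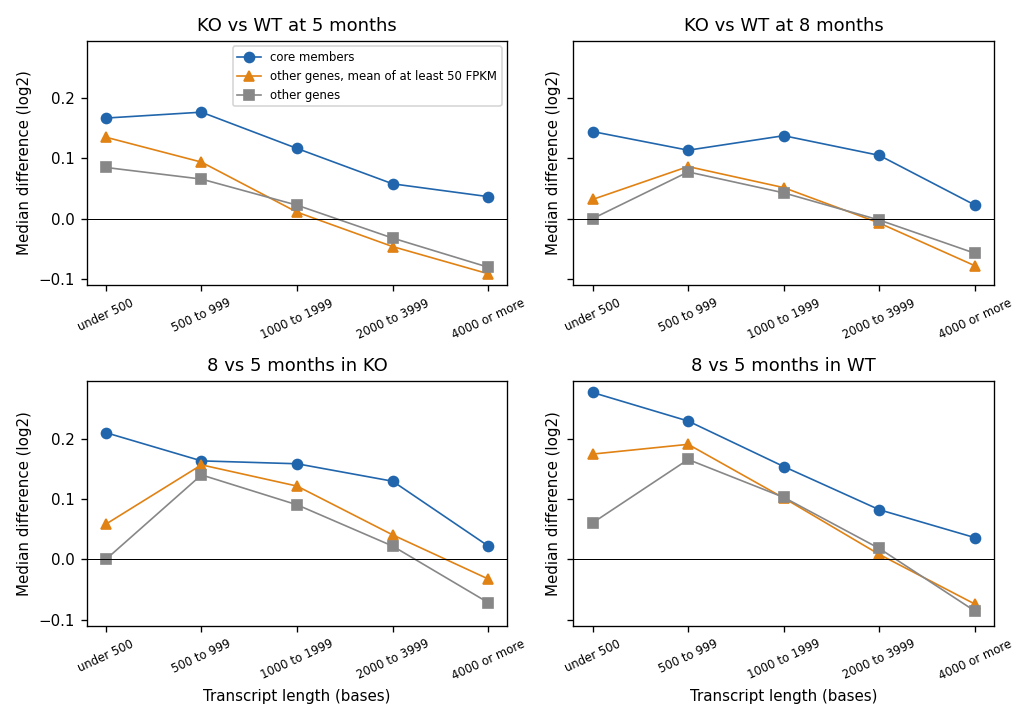
Median log2 difference (y axis) by class of transcript length (x axis, bases) for 4 comparisons, in core members (14, 46, 14, 2 and 1 genes from short to long), other genes averaging 50 FPKM or more, and all other genes tested. From the class of 500 bases on, the median falls with length in the other genes of every panel, and for 8 against 5 months in KO the classes from 500 to under 1000 bases stand at 0.16 in the core members and 0.16 in other genes of at least 50 FPKM.

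The 8-month libraries were compared with those of 5 months within each genotype, for which age and the code letter overlap in part, since all E libraries are of 5 months. In KO the median difference was 0.17 (8 over 5 months) with 79 of 85 members above 0, beside a median of 0.01 over all genes tested. No member passed the adjusted threshold, nor did any gene (0%), and the smallest adjusted p, 0.29, was that of Rpl35. At an unadjusted p under 0.05, 32 members had higher and 0 lower values, against 8.83% of all genes higher and 611 of 16277 lower. In 42 members every 8-month library lay above every 5-month library, against 11.1% of all genes. The counts at an unadjusted p were 17 without F6, 17 without F19, 19 without F18 and 42 without F27. They were 19 with the same FPKM sum, 10 after quantile scaling and 21 with median ratio scaling. High Xist was seen in 2 KO libraries at 8 months and 0 at 5 months, and with Xist as a covariate the count was 13.

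In WT the median was 0.22 with 84 of 85 members above 0, beside 0.02 over all genes. Again no member passed, as against 0.0123% of all genes, with a smallest adjusted p of 0.63. At an unadjusted p under 0.05, 47 members had higher and 0 lower values, against 4.28% of all genes higher and 577 of 16277 lower. In 46 members every 8-month library lay above every 5-month library, against 10.3% of all genes. Without E1 the count of 47 was 10 and the median 0.16, without F12 the count was 19, and without E3 it was 28. It was 18 with the same FPKM sum, 3 after quantile scaling, and 25 with the code letter and 26 with the neutrophil level as a covariate. It was 31 with the 2 groups fitted alone or with every gene above 0 FPKM, and 59 without E4. The code letter as a covariate rests on E7 against F18 and F19 here too. The WT difference in age and the 5-month genotype difference use the same 3 WT libraries, E1 among them, and are not independent.

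Rpl35 was thus at 972, 1007 and 992 FPKM at 8 months and 783, 753 and 747 FPKM at 5 months in KO, a difference of 0.38 ± 0.07 (limma adjusted p = 0.29), and in WT at 799, 801 and 877 FPKM at 8 months and 641, 688 and 721 FPKM at 5 months (0.27 ± 0.07, limma adjusted p = 0.63). Rpl41 was at 2162, 2253 and 2145 FPKM at 8 months and 1709, 1686 and 1632 FPKM at 5 months in KO (0.38 ± 0.10, limma adjusted p = 0.30). For both genes the ages did not overlap in KO. In the class of 500 to under 1000 bases, core members had medians of 0.16 in KO and 0.23 in WT, and the 325 other genes of at least 50 FPKM had 0.16 and 0.19, values that lie close together. Under 500 bases the 14 core members had 0.21 and 0.28, against 0.06 and 0.18 in 111 other genes.

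The paralogues ran from traces to a level like that of their partner. Rpl22l1, which in mouse is held down by Rpl22, was at 99.5 ± 9.48 FPKM in KO and 90.8 ± 9.46 FPKM in WT at 5 months, and at 95.9 ± 19.8 FPKM in KO and 104 ± 11.4 FPKM in WT at 8 months (SD, n = 3 each). It made up 49.5 to 52.8% of the summed FPKM of Rpl22l1 and Rpl22 in the 4 groups. Rpl36al made up 34.9 to 35.9% of the sum with Rpl36a, Rps27l, a p53 target in other tissues, 3.81 to 4.66% of the sum with Rps27, and Rpl7l1 3.6 to 4.02% of the sum with Rpl7. These shares moved little between groups.

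Rps4l had the highest difference of the well-expressed paralogues. It was at 31.9, 42.4 and 35.1 FPKM in KO libraries and 24.99, 27.7 and 27.2 FPKM in WT libraries at 5 months, and at 55.4, 52.5 and 41.6 FPKM in KO libraries and 24.6, 47.6 and 40.6 FPKM in WT libraries at 8 months. The groups did not overlap at 5 months and did at 8 months, where F1 alone was low. The difference averaged over ages was 0.44 ± 0.15 (limma adjusted p = 0.23). Rps27l was at 122, 153 and 117 FPKM in KO libraries and 92.1, 109.6 and 115 FPKM in WT libraries at 5 months (0.31 ± 0.13, limma adjusted p = 0.26), and its groups overlapped at 8 months.

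Rpl3l, the form of Rpl3 in striated muscle, was at 0.896, 6.05 and 1.02 FPKM in KO libraries and 0.368, 8.67 and 0.325 FPKM in WT libraries at 5 months, and at 1.45, 0.456 and 1.98 FPKM in KO libraries and 0.399, 0.110 and 0.402 FPKM in WT libraries at 8 months. The groups overlapped at 5 months and did not at 8 months, where KO was above WT. The 2 highest libraries, F18 and E3, were also those in which 14 skeletal muscle genes had their highest sums, 1719 and 2342 FPKM, against 272 to 679 FPKM in the rest. At 8 months the muscle sums were 566, 404 and 679 FPKM in KO libraries and 321, 354 and 344 FPKM in WT libraries, which did not overlap either. The part of muscle in the Rpl3l difference was not tested. The Rpl3l difference averaged over ages, 0.72 ± 0.64, was the highest of all members and little larger than its SE (limma adjusted p = 0.59).

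Rps27rt was near 1 FPKM. Its transcript overlaps Rps27 on the same strand of mm9 in the authors' annotation, and all of its 50-base stretches occur elsewhere, so that its level depends on how few reads were split from the abundant Rps27. It was at 1.14, 0.621 and 0.438 FPKM in KO libraries and 1.37, 1.14 and 1.48 FPKM in WT libraries at 8 months (-0.60 ± 0.21, limma adjusted p = 0.94). Of the members under the filter, Rpl39l, a testis form of Rpl39, was at 0.341, 0.974 and 0.707 FPKM in KO libraries and 0.353, 0.265 and 0.616 FPKM in WT libraries at 5 months, and at 0.0849, 0.518 and 0.241 FPKM in KO libraries and 0.234, 0.241 and 0.183 FPKM in WT libraries at 8 months. Rpl10l, the testis form of Rpl10, was listed at 0 in every library but E3 (0.0496 FPKM) and F1 (0.0463 FPKM). Rps19bp1 was tested and had differences of 0.01 ± 0.12 at 5 months and 0.12 ± 0.12 at 8 months.

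Ribosomal genes that carry other names included Fau, which codes for a small subunit protein fused to a ubiquitin-like protein, and Gnb2l1 (Rack1), a scaffold bound to the small subunit. Fau was at 767, 682 and 708 FPKM in KO libraries and 599, 607 and 679.7 FPKM in WT libraries at 5 months, without overlap (0.19 ± 0.10, limma adjusted p = 0.32). Gnb2l1 was at 421, 350.5 and 371 FPKM in KO libraries and 289, 326 and 334 FPKM in WT libraries at 5 months, again without overlap (0.27 ± 0.10, limma adjusted p = 0.23). At 8 months their differences were 0.13 ± 0.10 and 0.04 ± 0.10.

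Other genes known to carry a TOP motif, 17 in all, had a median of 0.10 at 5 months with 16 of 17 above 0. At 8 months it was 0.10 with 17 of 17 above 0. Of all 16277 genes tested, 7209 were above 0 at 5 months and 7873 at 8 months. Averaged over ages, 0 of the 17 passed the adjusted threshold in limma, and 5 were higher at an unadjusted p under 0.05, against 7.75% of all genes. These 5 were led by Pabpc1, the poly(A) binding protein (0.29 ± 0.08, limma adjusted p = 0.17), and Npm1, a nucleolar chaperone (0.16 ± 0.05, limma adjusted p = 0.22). The 77 mitochondrial ribosomal protein genes, whose products build the separate ribosome of that organelle, had medians of 0.10 at 5 months and 0.04 at 8 months, with 61 and 57 of 77 above 0.

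The machinery that makes and uses ribosomes showed smaller medians. Over all genes tested, 7.75% had higher and 9.66% lower values in KO at an unadjusted p under 0.05 averaged over ages, beside which the counts of these lists stand. Averaged over ages, 55 ribosome biogenesis genes had a median of 0.05 with no gene called by limma, and an unadjusted p under 0.05 for 11 genes with higher and 0 with lower values in KO, among them Fbl, the methyltransferase of ribosomal RNA (0.24 ± 0.07, limma adjusted p = 0.19), and Pes1 (0.13 ± 0.03, limma adjusted p = 0.16). The 18 RNA polymerase I genes had a median of 0.06, with 1 higher and 1 lower. The 41 initiation and elongation factors had a median of 0.06, with 9 higher and 2 lower, namely Eif4a1 (0.21 ± 0.06, limma adjusted p = 0.16) among the first and Eef1a2, the elongation factor of neurons and muscle (-0.23 ± 0.07, limma adjusted p = 0.20), among the second.

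The 19 mTOR pathway genes had a median of 0.01 averaged over ages, and those with an unadjusted p under 0.05 were 0 with higher and 4 with lower values in KO, beside 9.66% lower over all genes. These were Tsc2 (-0.20 ± 0.04, limma adjusted p = 0.12) and Tsc1 (-0.15 ± 0.07, limma adjusted p = 0.27), which restrain the pathway, and the kinases Rps6ka3, of the Rsk family, (-0.20 ± 0.06, limma adjusted p = 0.21) and Rps6kb1 (-0.11 ± 0.05, limma adjusted p = 0.27). Of 10 factors known to bind ribosomal protein promoters the median was -0.01, and the smallest p were those of Myc (0.53 ± 0.21, limma adjusted p = 0.26) and its partner Max (0.13 ± 0.06, limma adjusted p = 0.27). None of the genes of these lists passed the adjusted threshold in this comparison.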

How the data were processed

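Cochlear RNA of 12 samples was prepared as stranded polyA libraries and sequenced as single ends of 50 bases. Per the submitters' processing notes and the study's methods, the authors took FPKM from Cufflinks 2.2.1 after aligning to the build mm9, allowing 5 hits a read and 2 mismatches (SAMtools 0.1.19, Bowtie 1.0.0, TopHat2 2.0.10). The deposited FPKM table had lost decimal points. They were put back here by requiring the mean of each group to equal the group FPKM deposited by the authors with their Cuffdiff comparisons (relative tolerance 2e-05). This fitted 95804 gene and group pairs but 2, changed 55.17% of values and left out 2 genes. The authors' fold changes and p-values, a correlation table and gene set reports were not used.

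R 4.3.3 and limma 3.58.1 were used on log2(FPKM + 0.5) of the 16277 genes averaging 0.5 FPKM or more, with the 4 groups in 1 fit, a variance trend and Benjamini-Hochberg adjustment at 0.05. The fit and the placing of decimal points were each tested on simulated data. Reads behind an FPKM are unknown, so no depth or counting error can be given. The labels give each library its own animal code, and Xist differed between the libraries of 3 of the 4 groups. Alternatives changed the pseudocount, filter, scaling, variance model, covariates and libraries used. Shared 50-base stretches were counted in the NCBIM37 genome (mm9) with Python 3.11.15 and numpy 2.4.6. Promoters came from RefSeq.

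The members and lists were chosen with earlier results of these data known. Members were named by rule: the 6 with the highest mean, up to 10 with the smallest p at each age and averaged, the 4 lowest and 4 highest differences, all paralogues, those under the filter, and up to 4 of each other list with the smallest p. Rpl30, Rps15a, Rps16, Rpl13a, Rpl6, Rpl8 and the members named for shared sequence were chosen after their values were seen.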

Additional observations from a re-analysis of the deposited data

How the results depend on the processing

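Under every alternative run, and without E7 and F5 (chosen after seeing the data), limma called 0 members in each of the 6 comparisons, with each library left out in turn included. In simulated data this fit rarely called changes as small as the members' medians. The 0 calls therefore do not show that levels were equal. Leaving out 1 library at a time gave median differences of 0.0935 (without E1) to 0.2196 (without E4) at 5 months, 0.0938 to 0.163 at 8 months, 0.11 to 0.1735 averaged over ages, 0.138 to 0.2139 for age in KO and 0.1589 to 0.2714 for age in WT. With the same FPKM sum in each library the median was 0.0667 at 5 months and 0.137 for age in WT, and the median of all genes at 5 months was then -0.1096. Quantile scaling gave -7e-04 at 5 months, 0.0402 at 8 months, 0.0298 averaged over ages, 0.0817 for age in KO and 0.0462 for age in WT. It gives the value at each rank the same size in every library by construction, and 38 of the 100 most abundant genes are members. With the code letter as a covariate, which rests on E7 against F18 and F19, age in WT gave 0.3349. Fitting the 2 compared groups alone gives no value for the comparison averaged over ages or for the difference between ages.

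Of 43 differences of named members, 7 changed sign under some alternative. Under quantile scaling these were Rps12 at 5 months (-0.0508) and, averaged over ages, Rps29 (-0.1328), Rpl41 (-0.0062), Rpl38 (-0.0568) and Rps21 (-0.1713). Rps21 also gave -0.033 with the same FPKM sum, and -0.0164 (without E1) to 0.0978 with 1 library left out. Rplp1 gave 0.0183 with the neutrophil covariate, and -0.0567 to 0.0109 (without E4) with 1 library left out. Rpl22l1 gave 0.0156 with median ratio scaling, 0.0266 with array weights, 0.062 with the code letter, and -0.0739 to 0.0764 (without F27) with 1 library left out. The causes were not tested. Depth limits cannot be given, since FPKM keep no read numbers.

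No paired analysis was possible because the groups share no replicate numbers.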
